A study of Rattus norvegicus with 10 samples.

Results

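Immediate early genes, together with stress response genes that share their rapid induction, were described in the renal cortex of PCK rats of both sexes. The genes named were *Fos*, *Fosb*, *Jun*, *Junb*, *Egr1*, *Nr4a1*, *Atf3*, *Ier2*, *Ier3* and *Slc25a25*, and every row of the deposited expression table that carried one of these symbols was used. Of the 10 genes, 9 were found, each on 1 row of the 32545 in the table. No row carried the symbol *Ier2*, and its expression was not analysed here. The PCK rat (PCK/CrljCrl-Pkhd1pck/Crl) is a model of autosomal recessive polycystic kidney disease, in which a mutation of *Pkhd1* leads to renal cysts. RNA was sequenced from 5 males and 5 females, 1 library per rat. All 10 rats carried the PCK genotype, and no rats of another strain and no treatment entered the comparison, so that the sexes of one diseased strain were compared. The series text gives the age as 12 to 14 weeks and the methods give 10 to 12 weeks. The samples are labelled as kidney and described in the methods as snap-frozen cortex. The sequenced rats were those of the study's untargeted metabolomics, described as littermates from 2 litters, so that rats shared a litter. The sources used here do not assign the rats to litters, and litter could not enter the tests.

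Immediate early genes are transcribed within minutes of a stimulus, without new protein synthesis, because the transcription factors that act on them are already present in the cell. Growth factors, calcium entry, ischaemia and other stress reach them through MAP kinases and through cyclic AMP, by way of serum response factor at CArG boxes and of CREB at cyclic AMP response elements (CREs). Most of the encoded proteins are transcription factors, such as the Fos and Jun proteins that pair to form AP-1. Their mRNAs are short-lived, and in the kidney they are known for their rise after ischaemia and tubule injury.

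The promoter windows of *Slc25a25* and *Nr4a1* are shown because these genes had the largest fold changes between the sexes and their windows hold CRE letters. The windows come from RefSeq on the build GRCr8 and run from 250 bases before to 50 bases after the start of each gene. A window was given for 6 of the 10 genes. Each is printed 5′ to 3′ on the strand of the gene. The *Slc25a25* window lies at chr3:36116532-36116831 on the minus strand, and its capitals mark a full CRE, TGACGTCA. The *Nr4a1* window lies at chr7:134259888-134260187 on the plus strand, and its capitals mark the core of a CRE, TGACG, which reads CGTCA on the other strand.
Slc25a25: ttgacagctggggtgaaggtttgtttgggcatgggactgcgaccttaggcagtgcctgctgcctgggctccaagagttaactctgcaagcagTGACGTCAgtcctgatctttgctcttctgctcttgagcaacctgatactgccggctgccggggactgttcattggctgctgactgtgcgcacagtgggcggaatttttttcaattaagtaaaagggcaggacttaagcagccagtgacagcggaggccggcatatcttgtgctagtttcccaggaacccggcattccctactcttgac
Nr4a1: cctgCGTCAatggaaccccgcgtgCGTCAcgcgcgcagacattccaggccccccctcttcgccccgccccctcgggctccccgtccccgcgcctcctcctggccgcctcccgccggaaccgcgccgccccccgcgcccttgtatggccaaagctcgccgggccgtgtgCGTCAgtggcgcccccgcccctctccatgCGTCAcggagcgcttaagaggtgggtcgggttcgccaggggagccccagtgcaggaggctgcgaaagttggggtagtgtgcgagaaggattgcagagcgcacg

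The full CRE of the *Slc25a25* window began at position -158, counted from the start of the gene, and contains the core on both strands, at -158 and -155. In the *Nr4a1* window 4 cores were found, at -246, -226, -82 and -53, with no full CRE. The *Ier2* window held a full CRE at -66. In the *Egr1* window 2 cores (-135 and -66) and 2 CArG boxes (-105 and -83) were matched. The *Junb* window held 1 core (-155) and 1 TATAAA (-49), and that of *Fosb* 1 TATAAA (-180). Both strands were searched, and the AP-1 site TGANTCA was matched in none of the 6 windows. Over all 33469 RefSeq windows of this length, the full CRE was found in 1.83%, the core in 21.2%, the AP-1 site in 7.33%, the CArG box in 1.64% and TATAAA in 14.2%. Over the 12129 windows whose symbol was among the genes tested, the shares were 2.78%, 29%, 5.19%, 1.32% and 7.75% in the same order. These matches are letters in a window, and no binding was measured.

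Each library held 13912569 to 20285911 reads on genes. Values are given as FPKM, the fragments counted on a gene scaled by its length and by a size set for each library. FPKM are per length and so can be compared between genes. The size behind the deposited values differed from the reads on genes in both directions. In male 1 it was 15435700 against 14387669 reads, and in female 4 it was 17691400 against 19556707 reads. Proximal tubule markers, the defining cells of the cortex, were present in every library, with a summed level between 2355 and 3686 FPKM in the males and between 2265 and 4000.3 FPKM in the females, and none of the 7 was at 0. Female 2 had the highest share of mitochondrial reads (26.8%, against 14.3 to 19.1% in the other 9 libraries) and the lowest proximal tubule sum. Because whole tissue was sequenced, fewer cells of a type and less RNA per cell cannot be told apart.

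*Junb* had the highest level of the 9 genes, followed by *Jun*, *Ier3*, *Egr1*, *Fos*, *Nr4a1*, *Slc25a25*, *Atf3* and *Fosb*. Neighbours in this order overlapped in range over the 10 rats. *Atf3* and *Fosb* overlapped only through female 4, where *Atf3* was 0.933 FPKM and *Fosb* ranged from 0.378 to 1.45 FPKM over the rats. All 9 genes had a lower mean log2 level in females, also with scaling by total reads and after quantile normalization. Across all 17631 genes tested, 51.2% had a lower mean in females. The median log2 fold change (female minus male) was -0.78 for the 9 genes and -0.01 for all genes tested. A gene was called at a limma adjusted p of at most 0.05 with a change of 2-fold or more. By this rule 1 of the 9, *Slc25a25*, was lower in females and 0 were higher, against 0.698% of all genes called lower. At an unadjusted limma p under 0.05, 6 of the 9 were lower, against 8.07% of all genes, and 5 of these 6 did not hold after adjustment over all genes.

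**Figure D1:**
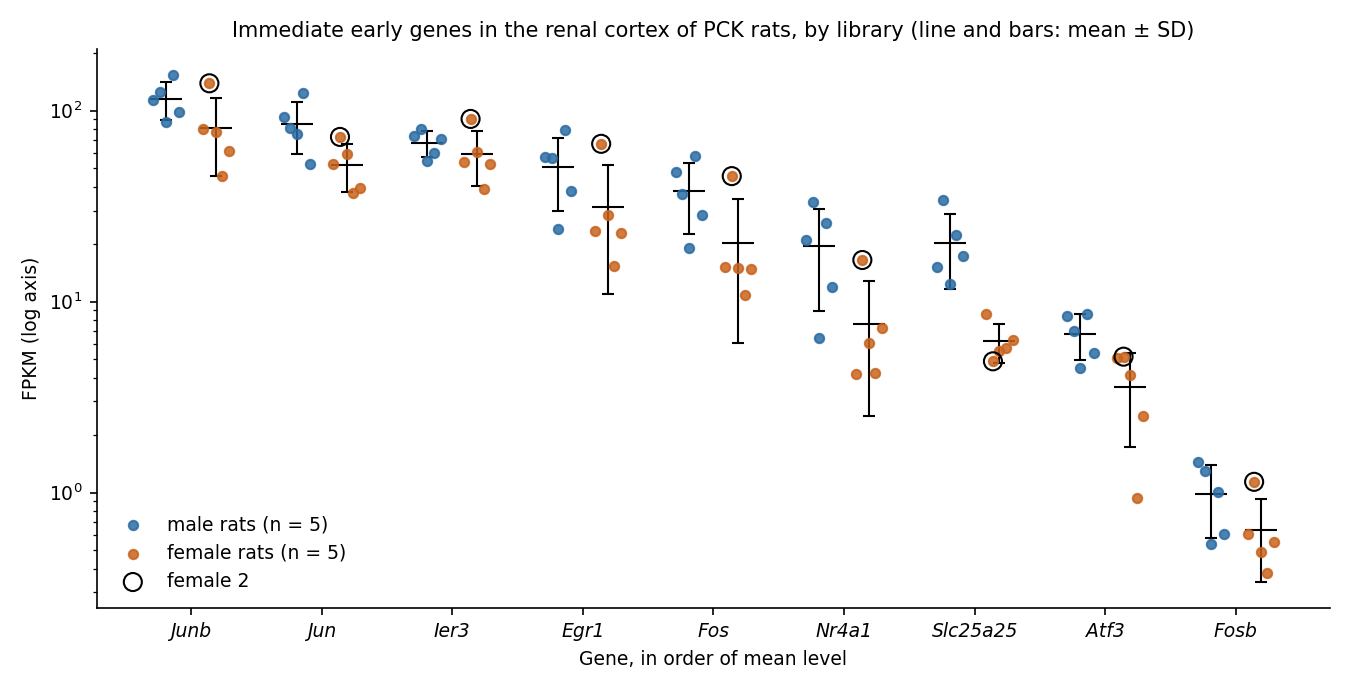
FPKM (log axis) of the 9 genes in each of the 10 libraries, males in blue and females in orange (n = 5 rats each), with the mean and SD of each sex in black. Only for *Slc25a25* are the sexes separate (males 12.3 to 34.1, females 4.87 to 8.57 FPKM), and female 2 (ringed) is the highest female in the other 8 genes.

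*Slc25a25* encodes a calcium-dependent carrier of the inner mitochondrial membrane that exchanges ATP-Mg for phosphate (ENSRNOG00000014338, Rnor_6.0 chromosome 3, 11442397 to 11452529, minus strand). It is the member of the group that is a transporter. Males 1 to 5 had 15.2, 34.1, 12.3, 22.4 and 17.3 FPKM, and females 1 to 5 had 8.57, 4.87, 5.50, 5.75 and 6.31 FPKM. Every female lay below every male, a pattern found in 2.6% of all genes tested in this direction. The mean was 20.3 ± 8.55 FPKM in males and 6.20 ± 1.42 FPKM in females (SD, n = 5 each), 3.27 times as high in males. The log2 fold change was -1.63 (SE 0.25, 95% confidence interval -2.18 to -1.07), with a limma adjusted p of 0.0058 and a two-sided exact permutation p of 0.00794, the smallest that 5 against 5 can give. Blocking on the replicate number raised the adjusted p to 0.047. Female 2, which had the highest level of the other genes among females, had the lowest level of *Slc25a25*.

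The other carriers of the same exchange were compared beside it. *Slc25a23* had 53.3 ± 11.2 FPKM in males and 49.7 ± 7.66 FPKM in females, and *Slc25a24* had 7.89 ± 1.01 and 6.13 ± 1.71 FPKM (SD, n = 5 each). Their log2 fold changes were -0.09 (limma adjusted p = 0.858) and -0.40 (limma adjusted p = 0.338), so neither was called. *Slc25a41* was listed at 0 in every library. In males *Slc25a25* therefore stood between these carriers in level, and in females its mean was close to that of *Slc25a24*.

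The Fos and Jun families, whose products form AP-1, were lower on average in females, and none of the 4 was called. *Fos* (ENSRNOG00000008015, chromosome 6, 109300433 to 109303299, plus strand) had 47.9, 36.5, 19, 57.8 and 28.4 FPKM in males 1 to 5. In females 1 to 5 it had 15.1, 45.4, 15.1, 10.8 and 14.9 FPKM. The other 4 females lay below every male, while female 2 lay above 3 of the 5 males. The mean was 37.9 ± 15.4 FPKM in males and 20.3 ± 14.2 FPKM in females (SD, n = 5 each), with a log2 fold change of -1.0 (95% confidence interval -1.86 to -0.15, limma adjusted p = 0.235, exact permutation p = 0.0952). Without female 2 the change was -1.34 and the limma adjusted p 0.0362, so this library decided whether *Fos* was called.

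*Fosb*, a second Fos protein, was the least abundant gene, with 25 to 90 reads per library (ENSRNOG00000046667, chromosome 1, 80214494 to 80221710, minus strand). Males had 1.45, 1.29, 0.538, 1.01 and 0.607 FPKM and females 0.605, 1.14, 0.491, 0.378 and 0.554 FPKM. The sexes overlapped, with male 3, male 4 and male 5 within the female range. Its log2 fold change of -0.55 (95% confidence interval -1.27 to 0.17, limma adjusted p = 0.458) had an interval that included 0. Counting error alone gives an SD of 0.226 on the log2 scale at this depth.

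*Jun* (ENSRNOG00000026293, chromosome 5, 114011189 to 114014277, minus strand), the founding Jun protein, had 93.0, 81.4, 75.3, 123 and 52.9 FPKM in males. Females had 52.4, 72.9, 59.2, 36.9 and 39.3 FPKM. Of the males only male 5 fell within the female range. The means were 85.1 ± 25.8 and 52.1 ± 14.8 FPKM (SD, n = 5 each), and the log2 fold change was -0.70 (95% confidence interval -1.22 to -0.18, limma adjusted p = 0.171, exact permutation p = 0.0317). *Junb*, a Jun protein that often opposes *Jun* (ENSRNOG00000042838, chromosome 19, 26092974 to 26094756, minus strand), had 114, 125, 86.8, 154 and 98.3 FPKM in males. In females it had 80.2, 139, 77.2, 45.6 and 61.6 FPKM. Here too 4 females were below every male and female 2 was the second highest of all rats. The log2 fold change was -0.59 (95% confidence interval -1.17 to -0.01, limma adjusted p = 0.306, exact permutation p = 0.111).

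*Atf3*, a leucine zipper factor of the stress response that binds CRE and AP-1 sites (ENSRNOG00000003745, chromosome 13, 109817728 to 109849632, minus strand), had 8.37, 7.03, 4.51, 8.60 and 5.39 FPKM in males. Females had 5.06, 5.15, 4.12, 0.933 and 2.51 FPKM. Only male 3 fell within the female range, and female 4 stood below all others, at 48 reads. The means were 6.78 ± 1.80 and 3.55 ± 1.81 FPKM (SD, n = 5 each), with a log2 fold change of -1.09 (95% confidence interval -1.99 to -0.18, limma adjusted p = 0.224, exact permutation p = 0.0317). The exact p-values of *Jun* and *Atf3* are not adjusted, and each rose to between 0.0556 and 0.0635 when any one of 6 libraries was left out.

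*Egr1*, a zinc finger factor (ENSRNOG00000019422, chromosome 18, 27657628 to 27661429, plus strand), had 57.0, 56.6, 23.9, 79.0 and 38.1 FPKM in males. Females had 23.4, 67.1, 28.5, 15.4 and 22.8 FPKM. Male 1, male 2, male 3 and male 5 fell within the female range, as female 2 lay above these 4 of the 5 males. Only male 3 lay within the range of the other females. Its log2 fold change was -0.78 (95% confidence interval -1.64 to 0.09, limma adjusted p = 0.378, exact permutation p = 0.167). *Nr4a1*, an orphan nuclear receptor (ENSRNOG00000007607, chromosome 7, 142905758 to 142920216, plus strand), had 21.0, 33.3, 6.47, 25.7 and 11.9 FPKM in males. In females it had 4.17, 16.5, 6.06, 4.23 and 7.25 FPKM. Male 3 and male 5 fell within the female range, and the other 3 males lay above every female, of which female 2 was the highest. The means were 19.7 ± 10.7 and 7.65 ± 5.13 FPKM (SD, n = 5 each), and the log2 fold change was -1.34 (95% confidence interval -2.38 to -0.29, limma adjusted p = 0.194, exact permutation p = 0.0635).

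*Ier3*, a stress-induced protein that modulates cell survival (ENSRNOG00000000827, chromosome 20, 3438798 to 3440769, minus strand), differed least. Males had 74.0, 80.5, 54.7, 59.8 and 71.2 FPKM and females 54.2, 90.6, 60.7, 38.8 and 52.8 FPKM. The ranges overlapped widely, and female 2 had the highest value of all rats. The log2 fold change was -0.24 (95% confidence interval -0.67 to 0.20, limma adjusted p = 0.624, exact permutation p = 0.381), smaller than the SD among rats of one sex (0.351).

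**Figure D2:**
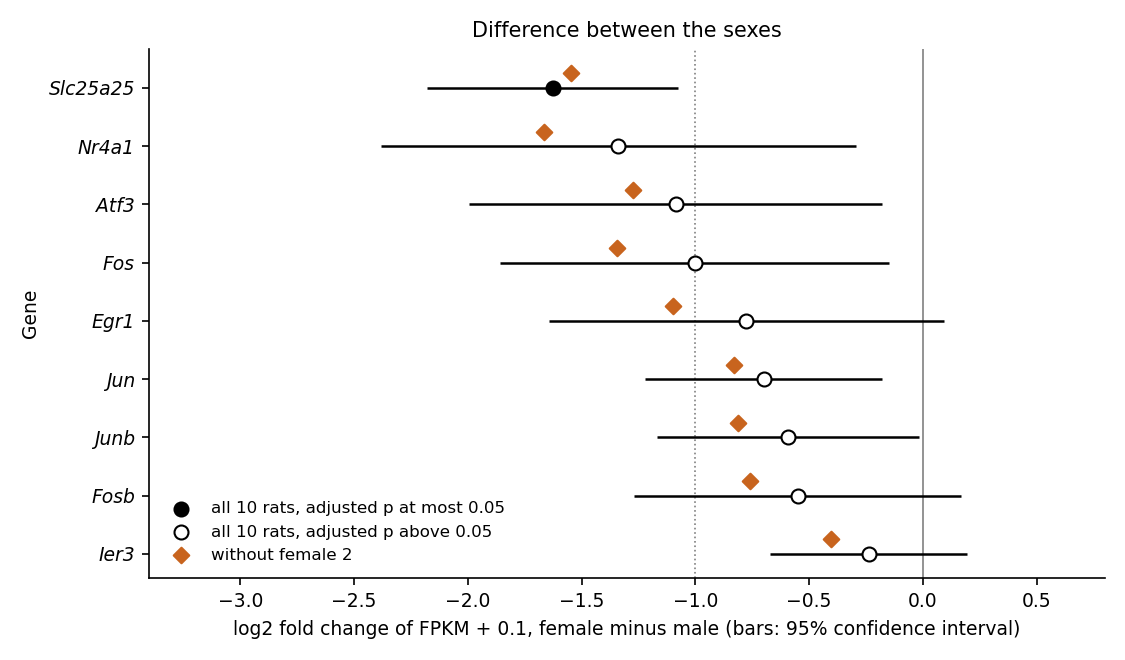
Log2 fold change (female minus male) of FPKM + 0.1 for each of the 9 genes, with its 95% confidence interval over the 10 rats, and the estimate without female 2 as a diamond. All 9 estimates lie below 0, from -1.63 for *Slc25a25* to -0.24 for *Ier3*, and only *Slc25a25* is filled, for an adjusted p of at most 0.05.

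Leaving out female 2 moved the estimates of 8 genes away from 0 and that of *Slc25a25* towards 0, to -1.55 (limma adjusted p = 0.0144). The direction of these shifts was fixed in advance. Female 2 was the highest female in the 8 genes and the lowest in *Slc25a25*, so the counts without it describe its weight and are no separate support. Without this library 2 of the 9, *Fos* and *Slc25a25*, passed 0.05 after limma's adjustment, against 1.51% of all genes lower in females. The unadjusted exact permutation p was at most 0.05 in 3 of the 9 with all rats, against 7.38% of all genes lower in females, and in 7 of the 9 without female 2, against 8.75%. Leaving out female 4, which was low in these genes, moved all 9 estimates towards 0. *Slc25a25* was then at -1.61, *Nr4a1* at -1.18, *Fos* at -0.83 (limma adjusted p = 0.419) and *Atf3* at -0.69 (0.269). *Jun* was at -0.59, *Egr1* at -0.57 (0.617), *Fosb* at -0.42, *Junb* at -0.41 (0.524) and *Ier3* at -0.10 (0.878).

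The spread among rats of one sex was wide for these genes. The SD of the log2 values, pooled over the sexes, was 0.874 for *Nr4a1*, 0.752 for *Atf3*, 0.726 for *Egr1* and 0.715 for *Fos*, against a median of 0.273 for all genes tested. Set among the 500 genes nearest in mean level, *Nr4a1* stood at percentile 99.4, *Fos* at 99.0, and *Egr1* and *Atf3* at 97.4. *Slc25a25* was at percentile 94.4, *Junb* at 94.0, *Jun* at 93.4, *Ier3* at 86.2 and *Fosb* at 59.1. Within the males *Nr4a1* varied 5.14-fold from lowest to highest and *Fos* 3.04-fold. Within the females *Atf3* varied 5.52-fold, *Egr1* 4.36-fold and *Fos* 4.2-fold. *Slc25a25* varied 1.76-fold among the females and 2.77-fold among the males, and leaving out male 2 lowered its SD from 0.452 to 0.328. Leaving out female 4 lowered the SD of *Atf3* to 0.432, and leaving out female 2 lowered that of *Fos* to 0.501.

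**Figure D3:**
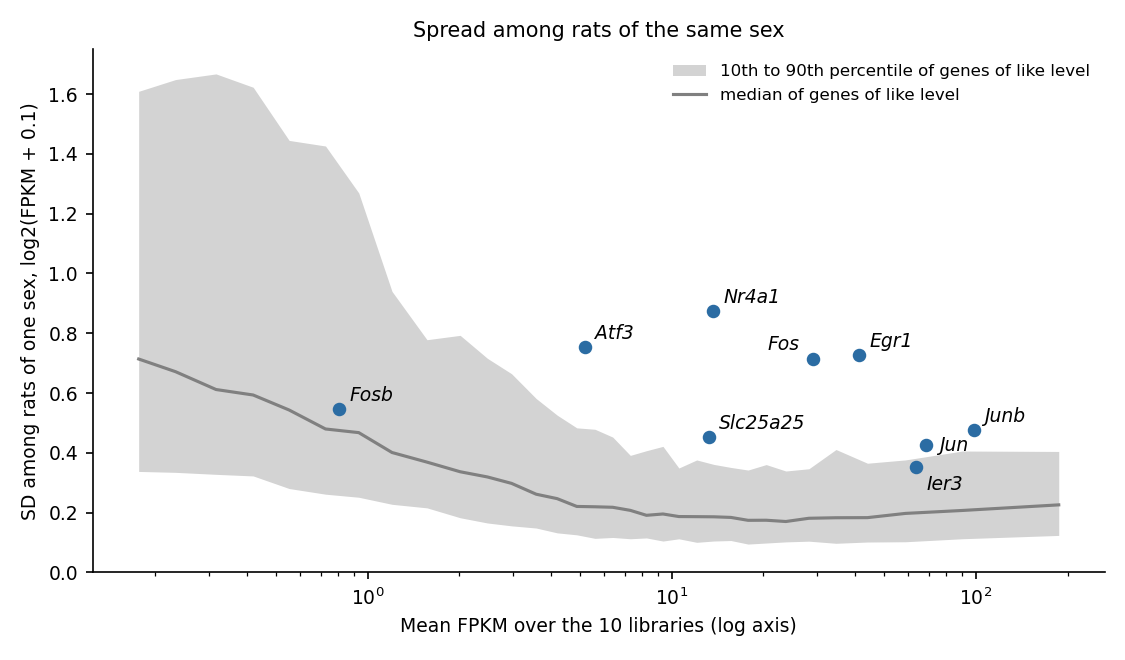
SD among rats of one sex (log2 scale, pooled over males and females) against mean FPKM (log axis) for the 9 genes, over the median (line) and the 10th to 90th percentile (grey) of bins of 500 genes ordered by level. *Nr4a1*, *Atf3*, *Egr1* and *Fos* lie far above the grey band, at 0.715 to 0.874, while *Fosb* (0.545) and *Ier3* (0.351) lie within it.

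The same rats were high for most of the genes. *Slc25a25* was set apart from this count after its values had been seen, which left 8 genes. Male 4 had the highest level of the 10 libraries in 5 of these 8, and the lowest mean rank (2.13, where 1 is the highest), followed by male 1 (2.5), male 2 (2.75) and female 2 (3.13). Female 4 was the lowest of the 10 in 7 of the 8 (mean rank 9.88), and male 3 was the lowest male in 7 of the 8 (6.50). In 5 of the 8 genes the 4 highest libraries were the same, namely male 1, male 2, male 4 and female 2. Female 2 was the highest female in all 8.

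**Figure D4:**
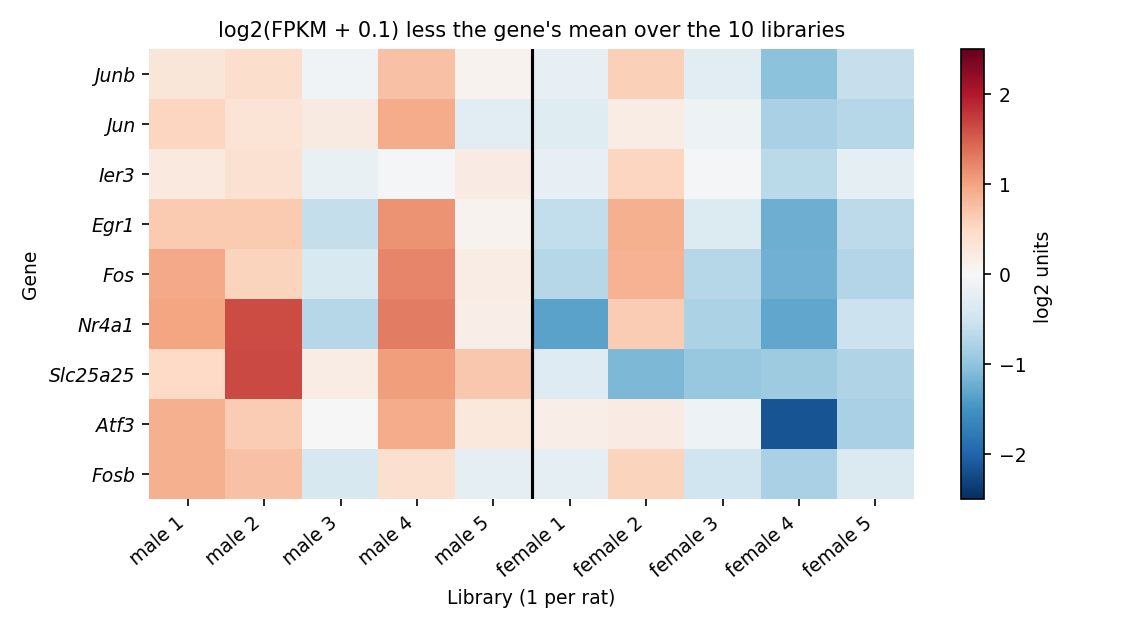
Log2(FPKM + 0.1) of each gene less its mean over the 10 libraries, males left of the line and females right of it, with red above and blue below the mean. Female 2 is red in 8 genes and blue in *Slc25a25*, and female 4 is blue in all 9.

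After the mean of each sex was subtracted, the log2 levels of these 8 genes correlated over the 10 rats with a median Pearson r of 0.78 over 28 pairs (0.47 to 0.98), and *Fos* and *Egr1* were the closest pair (0.98). The 8 pairs that included *Slc25a25* had a median r of 0.18 (0.05 to 0.36). All pairs share the same libraries, so these values describe the data and carry no p. They leaned on female 2 and female 4, the libraries farthest from the middle. Without them (n = 8) the median was 0.67 (-0.08 to 0.96), and it was 0.50 (0.18 to 0.66) for the pairs with *Slc25a25*.

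Markers of other cell types and of injury also varied between these libraries, in part along with the immediate early genes. Smooth muscle and fibroblast markers (6 genes) summed to between 278 and 374 FPKM in the males and between 102 and 384 FPKM in the females, where female 2 was the highest and female 4 the lowest of all 10 libraries. The 6 lymphocyte markers showed the same extremes, at 24 FPKM in female 2 and 3.25 FPKM in female 4, both outside the male range of 8.40 to 23.3 FPKM. The 6 macrophage markers summed to between 119 and 230.3 FPKM in the males and between 57.1 and 139.5 FPKM in the females, with female 2 the highest and female 4 the lowest female. Tubule injury markers, of which 5 of 6 could be tested, summed to 3892 to 7632 FPKM among the males and 1110.4 to 6265 FPKM among the females. Most of this sum was *Spp1* (osteopontin), with a mean of 4026 FPKM. The injury sum was lowest in female 4, but in female 2 it was 5339 FPKM, below the highest female. The injury and macrophage sums were highest in male 5, whose mean rank for the 8 genes was 5. The other 4 injury markers tested were also lowest in female 4. *Lcn2* (93.3 FPKM in male 5 and 5.85 FPKM in female 4) and *Vcam1* (12.0 and 4.09 FPKM) had the same highest and lowest libraries as the sum, while *Havcr1* and *Clu* were highest in others. *Havcr1*, the kidney injury molecule, was highest in male 4 (105 FPKM) and lowest in female 4 (3.38 FPKM), with a log2 fold change of -1.43 at a limma adjusted p of 0.321. *Clu* (clusterin) was highest in female 2 (1106 FPKM), lowest in female 4 (208 FPKM), and lowest among the males in male 5 (452 FPKM). No marker of these 4 lists was at 0 in every library, and none was called by limma, or by limma-voom on the reads recovered from the FPKM. At an unadjusted limma p under 0.05, 1 of 5 injury, 2 of 6 macrophage, 3 of 6 smooth muscle and fibroblast and 0 of 6 lymphocyte markers were lower in females, against 8.07% of all genes. Without female 2, *Pdgfrb* and *Col1a1*, 2 of the 6 smooth muscle and fibroblast markers, were lower in females at a limma adjusted p of 0.032 and 0.0453, against 1.51% of all genes. With all rats these values were 0.12 and 0.0821, and *Col1a1* was lower in every female than in every male. All tested markers of the thick ascending limb, the distal convoluted tubule and the principal and intercalated cells of the collecting duct had higher means in females, although *Aqp3* turned lower with scaling by total reads and after quantile normalization. At an unadjusted limma p under 0.05, 4 of 4 intercalated cell, 2 of 4 principal cell, 2 of 2 distal convoluted tubule and 1 of 3 thick ascending limb markers were higher, against 7.67% of all genes. Proximal tubule markers went both ways, with 4 of 7 higher and 3 lower. Of these, 1 was higher and 2, *Aqp1* (log2 fold change -0.56) and *Slc22a6* (-0.53), were lower at an unadjusted limma p under 0.05, and neither of the lower pair passed after adjustment (limma adjusted p 0.233 and 0.16). *Pvalb*, the remaining distal convoluted tubule marker, was listed at 0. Intercalated cell markers summed to between 104 and 171 FPKM in the males and between 176 and 276 FPKM in the females, highest in female 2. Without female 2, *Atp6v1g3*, 1 of the 4, was higher at a limma adjusted p of 0.047 (0.0666 with all rats), against 1.62% of all genes. After adjustment *Avpr2*, the vasopressin receptor of principal cells (log2 fold change 0.44, limma adjusted p = 0.0469), and *Cubn*, a proximal tubule receptor for filtered protein (0.72, limma adjusted p = 0.0467), passed 0.05. Both lost this with the replicate number as a block (0.155 and 0.103) and without most single libraries. *Avpr2* kept it only without female 2 or male 1, and *Cubn* only without female 2 or male 4. Podocyte (4 of 4) and endothelial markers (4 of 5) had mostly higher means in females, and their sums were highest in female 2 and lowest in female 1. Red blood cell markers (4 of 5 higher) had their highest sum in female 4 and their lowest in female 3. The 3 neutrophil markers tested had lower means in females, with the sum highest in male 5 and lowest in female 4. The part of any of these markers in the levels of the immediate early genes was not tested.

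The genes most alike in pattern were sought among the 13355 other tested genes whose mean reached 1 FPKM. Likeness was the Pearson r, over the 10 rats, between the sex-centred log2 level of a gene and the mean sex-centred, standardised level of the 9 genes. The 10 named genes with the highest r were *Btg2* (0.975), *Rasd1* (0.973), *Cebpb* (0.959), *Ints7* (0.944), *Cebpd* (0.939), *Lin9* (0.935), *Sik1* (0.928), *Pank2* (0.926), *Abcc9* (0.921) and *Ralgds* (0.919). Of these, all but *Pank2* (0.04) had a log2 fold change below 0, from -1.22 for *Sik1* to -0.10 for *Ints7*, and 0 of the 10 passed 0.05 after limma's adjustment, against 2.4% of all genes. Without female 2, *Btg2* (limma adjusted p = 0.0411), *Cebpb* (0.0419) and *Sik1* (0.0267) passed 0.05, all lower in females, against 1.51% of all genes. *Btg2* and *Sik1* also stood in the list of other immediate early genes.

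Other immediate early genes followed the same direction. Of 38 listed, 36 could be tested. The number with a lower mean in females was 36 with scaling by total reads, 34 after quantile normalization and 31 without female 4. In the analysis as reported 35 of the 36 were lower, with a median log2 fold change of -0.50. None was called by limma, against 0.698% of all genes, while 14 were lower and 0 higher at an unadjusted p under 0.05 (8.07% and 7.67% of all genes), and limma-voom called 1. Among the 5 most abundant, *Errfi1*, which inhibits the EGF receptor, had 140.1 ± 54.3 FPKM in males and 75.2 ± 8.42 FPKM in females (log2 fold change -0.82, limma adjusted p = 0.0828). *Dusp1*, the phosphatase that switches off MAP kinases, had 74.7 ± 27.1 and 37.0 ± 7.90 FPKM (-0.96, limma adjusted p = 0.0885). *Zfp36*, which hastens the decay of short-lived mRNAs, had -0.76 (limma adjusted p = 0.235), *Rhob*, a small GTPase, -0.53 (limma adjusted p = 0.124) and *Jund*, the third Jun protein, -0.12 (limma adjusted p = 0.697).

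*Sik1*, a kinase induced by cyclic AMP, came nearest to the threshold. It had 7.22 ± 2.84 FPKM in males and 2.97 ± 1.03 FPKM in females (SD, n = 5 each), with a log2 difference of -1.22 at a limma adjusted p of 0.0554. Without female 2 it was called (limma adjusted p = 0.0267), as were *Btg2*, an antiproliferative gene (0.0411), and *Egr2*, a relative of *Egr1* (0.0352), and without male 3 *Sik1* and *Dusp1* were called (both 0.027). *Egr2* and *Sik1* are named here after their values were seen.

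Of 15 kinases and transcription factors listed that act upstream of these genes, 14 were tested. By limma 0 of the 14 were called, where 0.698% of all genes were called lower and 0.618% higher, and limma-voom also called 0. At an unadjusted limma p under 0.05 there were 0 in either direction, against 8.07% and 7.67% of all genes. In a list of this length 0 called genes lies near the share over all genes. Their median log2 fold change was -0.07, and *Mapk3*, a MAP kinase, had a mean of 49.6 ± 2.11 FPKM in males and 53.6 ± 3.22 FPKM in females (SD, n = 5 each). These are mRNA levels, and kinase activity was not measured.

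Genes of other stress responses did not share the direction. In the list of *Atf4* targets and the unfolded protein response, 12 of 14 had a higher mean in females, with a median log2 fold change of 0.26. *Chac1*, which degrades glutathione and is induced by *Atf4*, was the 1 gene called, with 0.488 ± 0.123 FPKM in males and 2.11 ± 1.03 FPKM in females (log2 fold change 1.79, limma adjusted p = 0.0193), where 0.618% of all genes were called higher. At an unadjusted limma p under 0.05, 5 of the 14 were higher and 1 was lower, against 7.67% and 8.07% of all genes. The limma adjusted p of *Chac1* was 0.0619 with the replicate number as a block, and it rose above 0.05 without female 3, female 5, male 2 or male 4 (0.051 to 0.058). With a pseudocount of 1 its log2 fold change was 0.999, just short of the 2-fold rule. *Asns*, asparagine synthetase, had 4.73 ± 0.907 and 9.03 ± 2.43 FPKM (0.89, limma adjusted p = 0.0471), where 1.26% of all genes were higher and 1.14% lower at this adjusted p alone, 2.4% in all. This adjusted p rose above 0.05 without any one library other than female 4, to 0.124 with the replicate block and to 0.0984 with scaling by total reads. *Hspa5*, the main chaperone of the endoplasmic reticulum, had 173 ± 5.39 and 245 ± 59.1 FPKM (0.47, limma adjusted p = 0.126), and *Atf4* itself had 0.22 (limma adjusted p = 0.369).

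**Figure D5:**
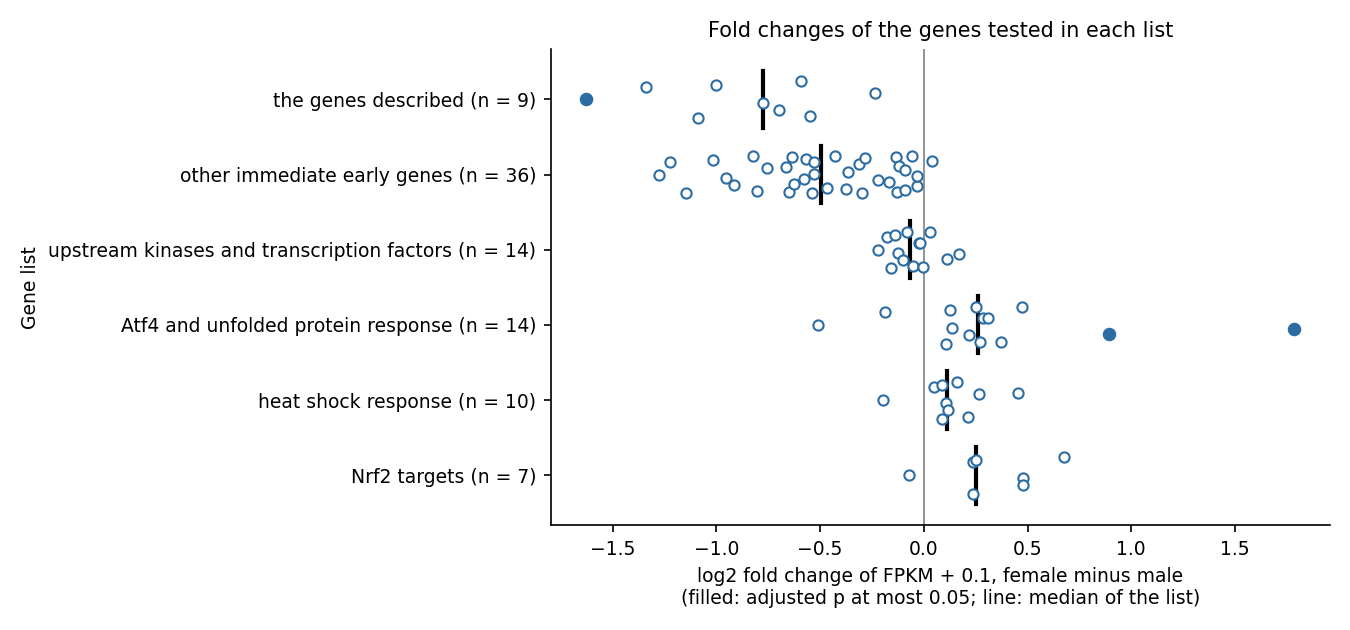
Log2 fold changes (female minus male) of every gene tested in each list, with the median of the list as a line and genes with an adjusted p of at most 0.05 filled. The medians are -0.78 for the 9 genes described, -0.50 for other immediate early genes, -0.07 for upstream factors, 0.26 for the *Atf4* list, 0.11 for heat shock and 0.25 for Nrf2 targets, and scaling by total reads left each on its side of 0.

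In the heat shock list 10 of 12 genes were tested. Of these, 8 had a higher mean in females with scaling by total reads (median log2 fold change 0.04) and 7 without female 2. In the analysis as reported 9 of the 10 were higher, with a median of 0.11. None was called by limma or limma-voom, and 3 of the 10 were higher at an unadjusted limma p under 0.05, against 7.67% of all genes. *Hspd1*, a mitochondrial chaperone, was the most abundant and changed by 0.09 on the log2 scale (limma adjusted p = 0.757). *Hsph1*, a partner of Hsp70, had 34.4 ± 4.0 FPKM in males and 47.2 ± 6.30 FPKM in females (0.45, limma adjusted p = 0.0643). Without female 2 its limma adjusted p was 0.0357, against 1.62% of all genes higher. Of 8 targets of Nrf2, the factor that responds to oxidative stress, 7 were tested, 6 had a higher mean in females and the median was 0.25. None was called by either tool, and 2 of the 7 were higher at an unadjusted limma p under 0.05, also against 7.67%.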

How the data were processed

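RNA sequencing of the renal cortex of 10 PCK rats, 5 of each sex, was re-analysed with the rats grouped by the labelled sex. The submitters' processing notes name fastp, HISAT2 2.0.5, StringTie 1.3.3b and featureCounts 1.5.0-p3, with reads mapped to Rnor_6.0. The authors deposited 1 table of FPKM for 32545 genes, and no per-sample column was left unused. Whether reads were counted by strand was not given in the sources used here. Each library is 1 rat, and p-values measure the spread between these rats, which came from 2 litters and are not independent of each other where they share one.

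Dividing each FPKM by the value of 1 read gave whole reads (within 0.01) for all libraries, from which depth was taken. Differences between the sexes were tested with limma 3.58.1 in R 4.3.3 (a linear model with trended empirical Bayes moderation) on log2(FPKM + 0.1), which understates the change of low genes. A mean of 0.1 FPKM or more was required, which left 17631 genes, and Benjamini-Hochberg adjustment ran over all of them. Calls needed an adjusted p of at most 0.05 and a 2-fold change. Mean FPKM of single genes was also compared by a two-sided exact permutation test (252 relabellings, not adjusted). Python 3.11.15 with pandas 2.3.3 and scipy 1.17.1 was used. Motifs were matched as exact letters in RefSeq promoter windows (GRCr8), while table coordinates are Rnor_6.0.

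The genes described and all lists were chosen with earlier results of these data known. The genes named are the 10 of the group, those of each list past the thresholds with up to 5 of its most abundant, and the 10 most alike in pattern. Other scalings, pseudocounts, filters, tools, a replicate block and leaving out each library were tried as alternatives.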

Additional observations from a re-analysis of the deposited data

Results flagged for a closer look

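The 9 genes and the row AC120246.2, an unnamed pseudogene that followed them closely, were each examined in both sexes. In 3 of these 20 groups of 5 rats, the highest or lowest library stood apart from the other 4 by more of the range than Dixon's critical value of 0.710 allows at 95%. All 3 were female 2 among the females. *Fos* was 45.4 FPKM in this library, against 10.8 to 15.1 FPKM in the other females, a gap of 0.876 of the range. *Nr4a1* was 16.5 FPKM against 4.17 to 7.25 FPKM (0.750), and *Egr1* was 67.1 FPKM against 15.4 to 28.5 FPKM (0.746). Chance marks about 1 in 20 groups where values are normally distributed, and these 3 genes varied together, so they are not independent. The gaps were taken on FPKM and would be smaller on the log2 scale, where this rule was not tried. Female 2 also had the highest mitochondrial read share, 26.8%. Its part in these values was not tested.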

How the results depend on the processing

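Of 188 limma values of the 9 genes under alternatives, 187 kept their direction and their side of the threshold, 0 reversed, and 1, *Fos* without female 2 (-1.34, limma adjusted p = 0.0362), passed it. Some of these alternatives could not change a direction. Scaling by median ratios used the same factor (1.01) in all 10 libraries, so the deposited values were already even by this measure. The settings of moderation, filter and replicate block left each fold change as it was and could move only its p. *Fosb* had no value with a minimum mean of 1 FPKM. The number of the 9 genes called was 1 to 2 when each library was left out, with 2 without female 2, and 1 otherwise. For *Slc25a25* the limma adjusted p ranged from 0.0044 to 0.019 with each library left out.

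Of the other immediate early genes, 0 were called in the analysis as reported, and 1 was called with a minimum mean of 1 FPKM, with limma-voom on whole reads, with the replicate block and with scaling by total reads, and 0 to 3 with each library left out. The replicate block gave 89 genes higher and 87 lower over all genes, against 109 and 123 without it. Same-numbered libraries did not deviate together (correlations -0.10 to 0.07). These values cannot tell whether the numbers pair the rats, for example by litter. Scaling by total reads moved the median of all genes by the most, to -0.08, and reversed *Pank2* to -0.034 and *Mapk9* to -0.047. With single libraries left out, *Rps6ka3* ranged from -0.052 to 0.059, *Mapk9* from -0.019 to 0.069 and *Gclc* from -0.26 to 0.13 on the log2 scale, each crossing 0. The cause was not tested. Of the 9 genes, *Fosb* had the lowest depth, at 25 reads in its lowest library, and *Chac1* had 9.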

Other observations

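A row labelled only AC120246.2 (ENSRNOG00000054344, annotated as a pseudogene, Rnor_6.0 chromosome 19, 25774143 to 25775659) followed the immediate early genes more closely than any named gene, with a Pearson r of 0.984 over the 10 rats and 0.976 without female 2 and female 4. It was noticed after its values were seen. In the table it lies between *Cacna1a* and *Nacc1*, and RefSeq on GRCr8 places *Ier2* between the same 2 genes. The position alone does not identify the row, and it was not counted among the genes described. Its level was 48.6 ± 11.1 FPKM in males and 35.1 ± 9.73 FPKM in females (SD, n = 5 each), -0.48 on the log2 scale (limma adjusted p = 0.282, exact permutation p = 0.0714).

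*Dusp2*, a phosphatase that inactivates MAP kinases, was named after its values were seen, as an immediate early gene whose sexes did not overlap (4.15 ± 0.727 FPKM in males and 2.81 ± 0.372 FPKM in females, SD, n = 5 each). Its log2 fold change of -0.54 had a limma adjusted p of 0.0922 and an exact permutation p of 0.00794. It was 1 of the 36 other immediate early genes tested with ranges apart and lower in females, close to the 2.6% among all genes, so that this count does not set the list apart.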
